A study of Caenorhabditis elegans with 27 samples.

Results

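The CCCH zinc finger genes of C. elegans oocytes and early embryos were examined as a group of 8: oma-1 (C09G9.6), oma-2 (ZC513.6), moe-3 (F32A11.6), mex-5 (W02A2.7), mex-6 (AH6.5), mex-1 (W03C9.7), pos-1 (F52E1.1) and pie-1 (Y49E10.14). They were taken by gene name from a count table of 45461 features, and all 8 had a row there. A gene counted as expressed when its TMM-normalized count averaged 100 or more in the 9 libraries of input; 7418 genes passed, among them 7 of the 8 (all but moe-3). All animals were young adults of the wild-type strain N2, grown from synchronized larvae on bacteria that make double-stranded RNA. The groups were gld-2(RNAi) and gld-4(RNAi), which knock down a cytoplasmic poly(A) polymerase each, and control RNAi, in which the bacteria carried the empty feeding vector. From each treatment 3 libraries were made of total lysate (input), 3 of the pooled non-polysomal part of a sucrose gradient (NP) and 3 of its polysomal part (P), 27 in all. The design limits what these groups model: the RNAi lowers and does not delete its target, the lysates are of whole worms, and the study describes the gld-2(RNAi) adults as sterile and the gld-4(RNAi) adults as fertile.

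Proteins of this family carry paired CCCH zinc fingers with which they bind RNA, often in the untranslated region after the stop codon of a maternal mRNA. OMA-1 and OMA-2 act redundantly in the last steps of oocyte growth and maturation, where they hold maternal mRNAs in a repressed state. In the zygote, MEX-5 and MEX-6 collect in the anterior and drive the other family members to the posterior, where MEX-1, POS-1 and PIE-1 are inherited by the germline blastomeres and there act on P granules, on maternal mRNAs and on transcription. The mRNAs of these proteins are made in the adult germ line and loaded into the oocyte. In an adult they can thus lie in germ cells, in oocytes and in the embryos still held in the uterus.

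The libraries held 12160686 to 18132556 counts. The RNAi targets followed the labels: gld-2 mRNA stood at 3.73 to 16.7 CPM (counts scaled to a common library total, with TMM over all 27 libraries) in the 9 gld-2(RNAi) libraries, against 34.0 to 103 in the 9 control RNAi libraries, and gld-4 mRNA at 8.23 to 23.1 in gld-4(RNAi), against 101 to 206 in control RNAi. In gld-2(RNAi), gld-4 mRNA was itself lower in NP (-1.29 ± 0.17 on the log2 scale, edgeR adjusted p = 0.000915) and in P (-0.99 ± 0.18, edgeR adjusted p = 0.00971), with -0.51 ± 0.28 in input (edgeR adjusted p = 0.172). Cell type markers moved with the treatments. In input, the summed level of 12 sperm markers was 340.1 to 932 CPM in gld-2(RNAi) and 37.3 to 203 in gld-4(RNAi), against 23.7 to 97 in control RNAi, with at most 1 marker at 0 in a library. That of 12 oocyte markers was 4902 to 7904 in gld-2(RNAi) and 15797 to 24441 in gld-4(RNAi), against 10735 to 14785 in control RNAi, with none at 0. The 11 markers of mitotic and meiotic germ cells summed to 1897 to 2109 in gld-2(RNAi) and 3879 to 4309 in gld-4(RNAi), against 2926 to 3427 in control RNAi, and the 15 markers of zygotic transcription in embryos to 68.9 to 89.4 in gld-2(RNAi) and 213 to 282 in gld-4(RNAi), against 184 to 244 in control RNAi, with 4 to 5, 3 to 5 and 1 to 3 of them at 0. In control RNAi input gld-1 alone averaged 1409 CPM and lin-26 alone 157, a large part of the respective sum. In gld-2(RNAi) input 4 of the 11 germ cell markers were called reduced and 0 increased (all genes 12.2% and 8.22%). Their median log2 fold change was -0.34, with 6 lower and 2 higher at an edgeR adjusted p of at most 0.05. In P the germ cell sums overlapped, at 1998 to 2413 in gld-2(RNAi) and 1937 to 2460 in control RNAi. Of the 15 embryo markers 3 were tested. In input of gld-2(RNAi) none of the 8 muscle, 7 intestine and 3 gonad sheath or spermatheca markers tested was called changed. The summed level of all 6 sheath and spermatheca markers was 687 to 761 CPM in gld-2(RNAi) and 369 to 458 in gld-4(RNAi), against 441 to 578 in control RNAi, and 1 of the 3 tested was called increased in P of gld-2(RNAi). The libraries numbered 1 stood apart from those numbered 2 and 3 within each treatment: in input, replicate 1 was the lowest of its group in 20 of 21 sets of a tested CCCH mRNA and a treatment, and its sperm marker sum was the highest of its group in all 3 treatments. In these bulk samples fewer cells of a type and less RNA per cell cannot be told apart, and the part that any shift in cell types has in the changes below was not tested.

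In input of control RNAi, 7 of the 8 mRNAs were abundant and moe-3 was low. Per kilobase of exon, pos-1 was highest with 1292 ± 256 CPM per kb (mean ± SD, n = 3), followed by mex-5 with 539 ± 88.6, oma-2 with 411 ± 79.0, mex-6 with 288 ± 21.9, mex-1 with 258 ± 37.1, oma-1 with 216 ± 51.7, pie-1 with 121 ± 29.4 and moe-3 with 3.16 ± 0.514. The ranges of mex-5 and oma-2 overlapped, as did those of mex-6 and mex-1 and those of mex-1 and oma-1; the other neighbours in this order were apart. Among 7262 expressed genes with a known exon length, pos-1 ranked 115th and pie-1, the lowest of the 7 tested, 1037th. In gld-2(RNAi) input the order was another one, with mex-5 first at 363 ± 125 CPM per kb, pos-1 at 220.2 ± 44.8, oma-1 at 199 ± 80.1, mex-1 at 145 ± 38.5, mex-6 at 142 ± 34.8, oma-2 at 106 ± 26.2 and pie-1 at 33.0 ± 6.67, each down to oma-2 overlapping with its neighbour. In gld-4(RNAi) input pos-1 again came first, at 1515 ± 287 CPM per kb, and mex-5 second, at 928 ± 151; these did not overlap.

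**Figure D1:**
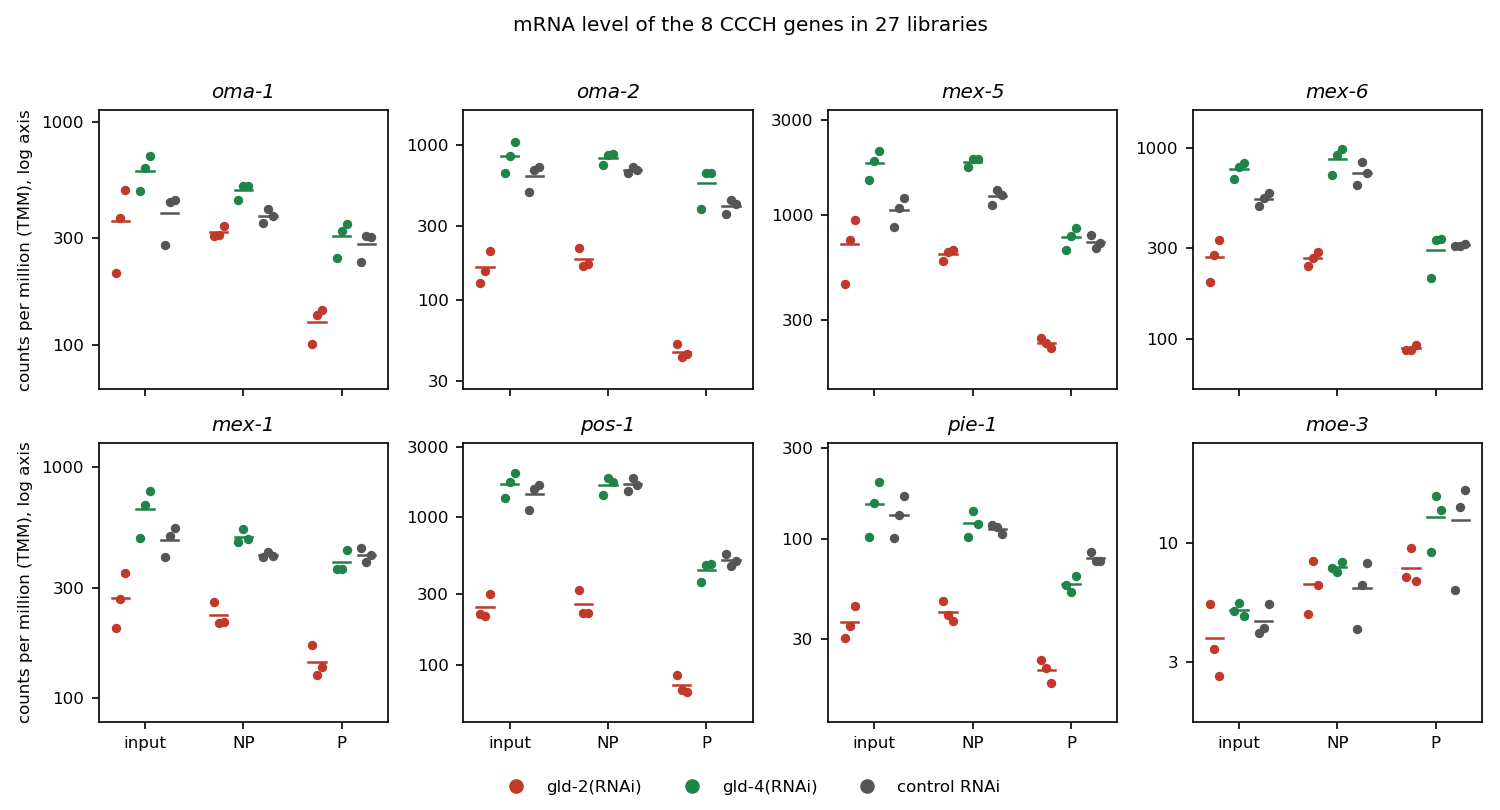
Level of each of the 8 CCCH mRNAs in every library, in TMM-scaled CPM on a log axis, by fraction (input, non-polysomal NP, polysomal P) and treatment; points are libraries in the order of their replicate numbers and lines are means of 3. For 7 genes the 3 gld-2(RNAi) libraries lie below the 3 control RNAi libraries in NP and in P, while in input oma-1 and mex-5 overlap with control RNAi; moe-3 stays under 20 CPM throughout. How many of all genes were separated like this was not counted.

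In gld-2(RNAi) most of the group was lower in total lysate, by factors that differed between members. In input, 4 of the 7 tested mRNAs were called reduced in gld-2(RNAi), which means an adjusted p of at most 0.05 (edgeR, Benjamini-Hochberg over 7418 genes) and a change of at least 2-fold; among all genes tested 12.2% were called reduced and 8.22% increased. The 4 were pos-1, lowered 5.97-fold, oma-2 3.95-fold, pie-1 3.72-fold and mex-6 2.06-fold. The log2 fold changes of mex-1 (-0.86 ± 0.21 SE, edgeR adjusted p = 0.0139), mex-5 (-0.60 ± 0.26, edgeR adjusted p = 0.105) and oma-1 (-0.14 ± 0.32, edgeR adjusted p = 0.745) were below zero as well, and only that of mex-1 passed on p (all genes 24.7% lower on p). The median over the 7 was -1.04, against 0.03 over all genes tested. Compared library by library within a replicate number, 6 of the 7 were lower in gld-2(RNAi) in all 3 numbers, the exception being oma-1. How many of all genes were lower in every number was not counted.

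In the fractions the reduction took in more members. In NP, 5 of the 7 were called reduced in gld-2(RNAi) (all genes 11.3%), with mex-5 joining the 4 above, and all 7 passed on p (all genes 30.2%). In P, all 7 tested were called reduced (all genes 8.68%), with log2 fold changes of -1.15 to -3.13. The median over the 7 was -1.51 in NP and -1.78 in P, against 0.04 and 0.02 over all genes tested. In both fractions every gld-2(RNAi) library lay below every control RNAi library for each of the 7. The share of all genes separated in this way was not counted.

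In gld-4(RNAi), none of the 7 was called in any fraction; these comparisons use the same control RNAi libraries as those of gld-2(RNAi). Their calls over all genes were few. The 73 lower and 29 higher in input became 0 and 0 without control RNAi replicate 2, gld-4(RNAi) replicate 2 or gld-4(RNAi) replicate 3. The 18 and 25 in P became at most 1 and 0 without any 1 control RNAi library, gld-4(RNAi) replicate 2 or gld-4(RNAi) replicate 3. In input, edgeR called 0 of 7 (all genes 0.984% reduced and 0.391% increased), with 3 at an unadjusted p under 0.05, and DESeq2 called 0. All 7 log2 fold changes were above zero, although that of pie-1 (0.13) turned negative without control RNAi replicate 1 (-0.06) or gld-4(RNAi) replicate 3 (-0.10), and their median was 0.38, against 0.03 over all genes. Within each of the 3 replicate numbers all 7 were higher in gld-4(RNAi) than in control RNAi, pie-1 in number 1 by only 0.0041. The share of all genes that were higher in every number was not counted. The increases of mex-5 (0.74 ± 0.15, edgeR adjusted p = 0.0248) and mex-6 (0.46 ± 0.10, edgeR adjusted p = 0.0303) passed on p (all genes 7.08% higher and 7.54% lower) but were under 2-fold. In NP, edgeR and DESeq2 called 0 of 7 (all genes 0.566% reduced and 0.876% increased); mex-5 (0.53 ± 0.15, edgeR adjusted p = 0.045) and oma-1 (0.34 ± 0.09, edgeR adjusted p = 0.0418) passed on p (all genes 9.68% higher), the 2 with an unadjusted p under 0.05. In P, edgeR and DESeq2 called 0 of 7 (all genes 0.243% reduced and 0.337% increased), with 1 at an unadjusted p under 0.05, pie-1, whose log2 fold change was -0.45 ± 0.11 (edgeR adjusted p = 0.0791); 4 values were below and 3 above zero, those of mex-5 and mex-6 so close to it that their sign changed with the processing.

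**Figure D2:**
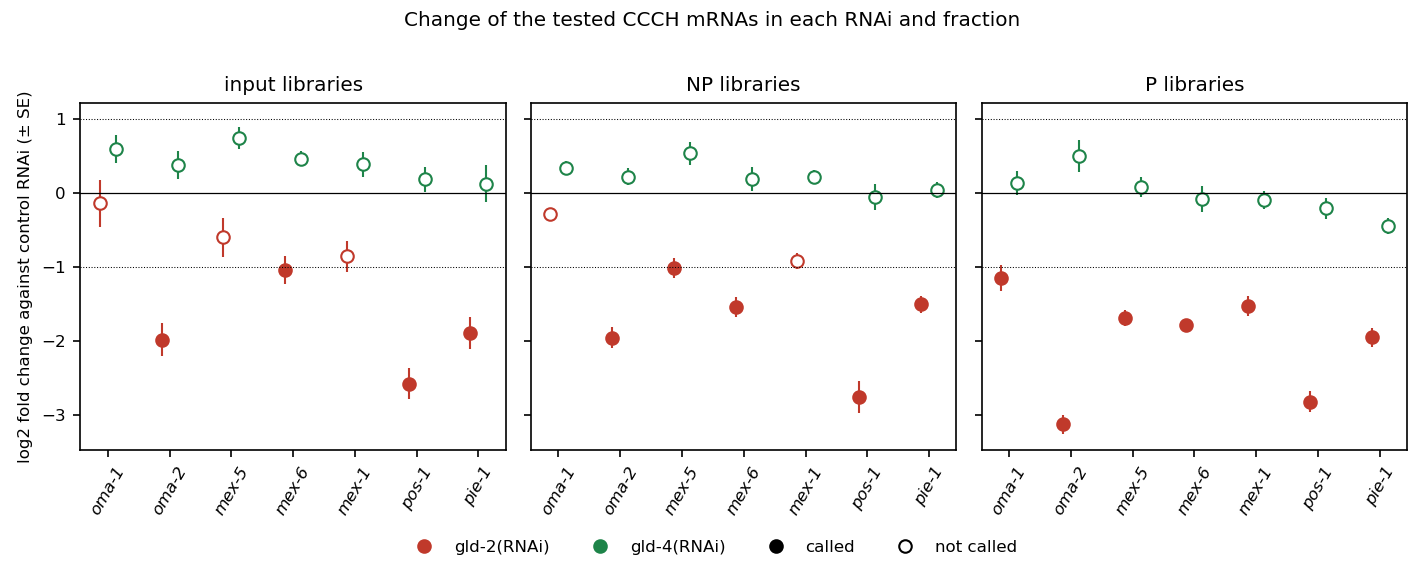
Log2 fold change against control RNAi, with its standard error, of the 7 tested CCCH mRNAs after gld-2(RNAi) or gld-4(RNAi), in input, NP and P libraries (n = 3 per group); filled symbols are called (adjusted p of at most 0.05 and at least 2-fold) and dotted lines mark 2-fold. In gld-2(RNAi) 4, 5 and 7 symbols are filled in input, NP and P, oma-2 and pos-1 being the lowest in each, and in gld-4(RNAi) none is.

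The paralogs oma-1 and oma-2 parted in gld-2(RNAi). In input, oma-2 stood at 129, 154 and 208 CPM in gld-2(RNAi), against 495, 690.5 and 719.9 CPM in control RNAi, a log2 fold change of -1.98 ± 0.22 (edgeR adjusted p = 0.000791). For oma-1 the values were 209, 372 and 497 CPM in gld-2(RNAi) and 281, 438 and 447 CPM in control RNAi. Thus oma-2 was low in each gld-2(RNAi) library and apart from control RNAi, while oma-1 overlapped with it. Within the 3 replicate numbers the log2 difference of oma-1 was -0.43, -0.24 and 0.15, and without gld-2(RNAi) replicate 1 its fitted log2 fold change was 0.12. In NP, oma-2 had 217, 165 and 170.2 CPM in gld-2(RNAi), against 655, 718 and 691 in control RNAi (-1.96 ± 0.14, edgeR adjusted p = 0.000103). There oma-1 had 307, 312 and 343 CPM in gld-2(RNAi), against 352, 405 and 379 in control RNAi (-0.29 ± 0.09, edgeR adjusted p = 0.0255), a small reduction of 1.22-fold with no overlap. In P, oma-2 had 51.8, 42.5 and 44.5 CPM in gld-2(RNAi), against 358, 442 and 414 in control RNAi (-3.13 ± 0.13, edgeR adjusted p = 0.000223), the strongest reduction of the group at 8.73-fold. Polysomal oma-1 had 101, 135 and 143 CPM in gld-2(RNAi), against 235.2, 307 and 303 in control RNAi (-1.15 ± 0.18, edgeR adjusted p = 0.00551), so this mRNA was called reduced in P and not in input; the difference between those fractions was not tested.

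Taken within a library, the ratio of oma-2 to oma-1 does not depend on scaling between libraries. Per exon length, oma-2 was 0.719, 0.481 and 0.489 times oma-1 in gld-2(RNAi) input, against 2.05, 1.84 and 1.87 times in control RNAi input. In NP the ratios were 0.821, 0.615 and 0.578 in gld-2(RNAi), against 2.16, 2.06 and 2.13 in control RNAi, and in P they were 0.598, 0.366 and 0.363 in gld-2(RNAi), against 1.78, 1.68 and 1.59 in control RNAi. In every control RNAi library oma-2 was thus the more abundant of the pair, and in every gld-2(RNAi) library it was the less abundant. The difference of the mean log2 ratio was -1.79 in input, -1.68 in NP and -1.97 in P, a 3.47-, 3.19- and 3.91-fold lower ratio. Each had p = 0.1 in a two-sided exact permutation test, the smallest that 3 against 3 libraries allow (0.12 after adjustment over the 12 paralog ratio tests), so none could pass 0.05. In gld-4(RNAi) the ratio was 1.58, 1.58 and 1.72 in input, 1.94, 1.95 and 1.97 in NP and 1.83, 2.38 and 2.20 in P. Against control RNAi its mean log2 value differed by -0.24 in input and -0.12 in NP, and by 0.34 in P, in each case without overlap and with the same exact p of 0.1. The levels themselves were 490.0, 622 and 708 CPM for oma-1 and 663, 845 and 1046 CPM for oma-2 in gld-4(RNAi) input, with log2 fold changes of 0.60 ± 0.19 (edgeR adjusted p = 0.0835) and 0.37 ± 0.19 (edgeR adjusted p = 0.216). In P, gld-4(RNAi) held 386, 664 and 659 CPM of oma-2 (0.50 ± 0.22, edgeR adjusted p = 0.236) and 246, 325 and 348 CPM of oma-1 (0.13 ± 0.16, edgeR adjusted p = 0.68); replicate 1 was the low one for both.

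**Figure D3:**
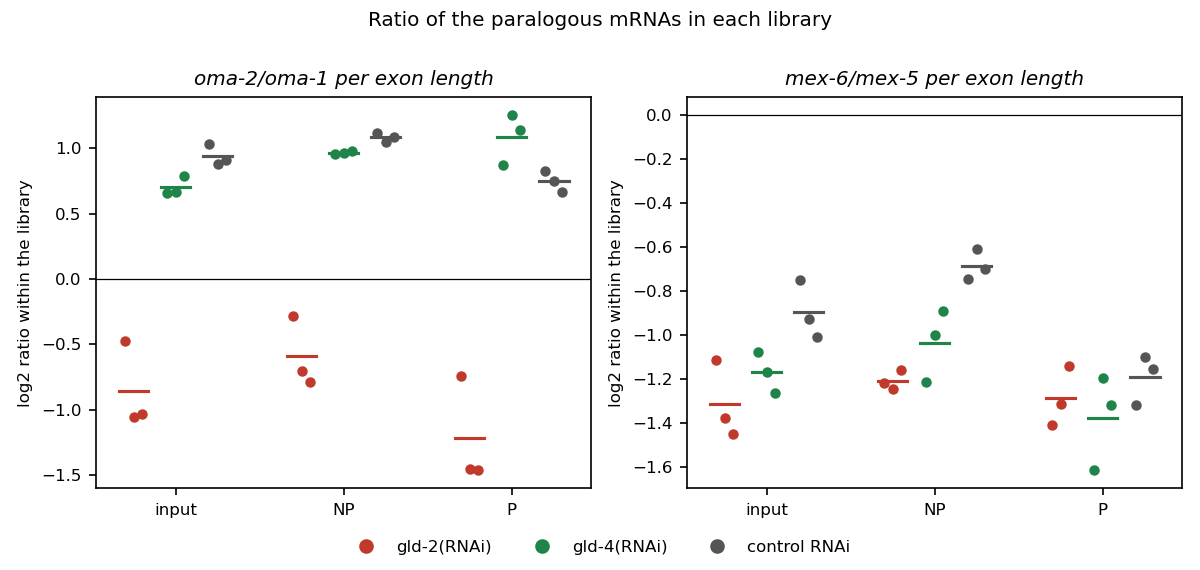
Log2 ratio of oma-2 to oma-1 and of mex-6 to mex-5, per exon length, in each of the 27 libraries by fraction and treatment; lines are means of 3 libraries and 0 means equal levels. The oma-2/oma-1 points of gld-2(RNAi) all lie below 0 and those of gld-4(RNAi) and control RNAi all lie above 0, whereas mex-6/mex-5 lies below 0 in every library.

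The paralogs mex-5 and mex-6, whose proteins set up the anterior domain of the zygote, changed their ratio by at most 0.52 on the log2 scale. In input, mex-5 had 453, 752 and 944 CPM in gld-2(RNAi) and 1515, 1878 and 2108 in gld-4(RNAi), against 879, 1088 and 1226 in control RNAi. There mex-6 had 201, 278 and 332 CPM in gld-2(RNAi) and 689.8, 800.2 and 842 in gld-4(RNAi), against 502, 548 and 585 in control RNAi. The gld-4(RNAi) libraries were above all control RNAi libraries for both genes, the gld-2(RNAi) libraries were below them for mex-6, and for mex-5 the highest gld-2(RNAi) library overlapped with the lowest control RNAi library. The call for mex-6 in gld-2(RNAi) (-1.04 ± 0.19, edgeR adjusted p = 0.00437) sat at the 2-fold limit, and it was lost, just under 2-fold (-1.0), without control RNAi replicate 3, at -0.89 without gld-2(RNAi) replicate 1 and at -0.92 without replicate 1 of both groups. In NP, mex-5 had 589, 657 and 668 CPM in gld-2(RNAi), against 1124, 1347 and 1264 in control RNAi (-1.02 ± 0.14, edgeR adjusted p = 0.0011), a call that also sat at the limit and was lost without control RNAi replicate 2 (-0.99) or gld-2(RNAi) replicate 1 (-0.97). For mex-6 in NP the values were 243, 266 and 287 CPM in gld-2(RNAi) and 643, 847 and 746 in control RNAi (-1.54 ± 0.13, edgeR adjusted p = 0.000173). In P both fell by similar factors: mex-5 had 244, 229 and 215 CPM in gld-2(RNAi), against 798, 689 and 731 in control RNAi (-1.69 ± 0.10, edgeR adjusted p = 0.000433). Polysomal mex-6 had 87.8, 88.3 and 93.7 CPM in gld-2(RNAi), against 307, 309 and 314 in control RNAi (-1.78 ± 0.08, edgeR adjusted p = 0.00023).

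Per exon length, mex-6 was 0.462, 0.385 and 0.366 times mex-5 in gld-2(RNAi) input and 0.474, 0.444 and 0.416 times in gld-4(RNAi) input, against 0.595, 0.525 and 0.497 times in control RNAi input. In NP it was 0.429, 0.422 and 0.447 times in gld-2(RNAi) and 0.431, 0.50 and 0.539 times in gld-4(RNAi), against 0.596, 0.655 and 0.615 times in control RNAi. In input and NP the share of mex-6 was thus lower in both RNAi treatments than in control RNAi, without overlap. The mean log2 ratio differed by -0.42 in gld-2(RNAi) and -0.27 in gld-4(RNAi) in input, and by -0.52 and -0.35 in NP, each with a two-sided exact permutation p of 0.1 (adjusted 0.12), the smallest possible. In P the groups overlapped, with differences of -0.10 in gld-2(RNAi) (exact permutation p = 0.5) and -0.18 in gld-4(RNAi) (exact permutation p = 0.3). Within the 3 replicate numbers the difference in P was -0.09, -0.21 and 0.02 in gld-2(RNAi) and -0.30, -0.10 and -0.16 in gld-4(RNAi). In gld-4(RNAi) the NP levels were 1750.2, 1918 and 1914 CPM for mex-5 and 723, 919 and 989 CPM for mex-6, and the P levels 673, 791 and 866 CPM for mex-5 and 211, 331 and 333 CPM for mex-6, the last with replicate 1 well below the others.

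Of the 3 genes for proteins of the germline blastomeres, pos-1 and pie-1 were strongly reduced in gld-2(RNAi) in every fraction and mex-1 less so. POS-1 binds and represses maternal mRNAs such as that of the Notch receptor glp-1. Its mRNA stood at 221, 214 and 304 CPM in gld-2(RNAi) input, against 1120.3, 1546 and 1663 CPM in control RNAi (-2.58 ± 0.21, edgeR adjusted p = 0.000319), the lowest value of the group in input. In NP it had 321, 224 and 224 CPM in gld-2(RNAi), against 1516, 1857 and 1658 in control RNAi (-2.76 ± 0.21, edgeR adjusted p = 0.000131), and in P 84.9, 67.2 and 65.2 CPM in gld-2(RNAi), against 563, 465 and 507 in control RNAi (-2.82 ± 0.15, edgeR adjusted p = 0.000292). The reduction of pos-1 was thus of much the same size in the 3 fractions, at 5.97-, 6.77- and 7.05-fold. PIE-1 keeps transcription off in the germline blastomeres. Its mRNA had 30.3, 35.1 and 44.9 CPM in gld-2(RNAi) input, against 102, 134 and 168 CPM in control RNAi (-1.90 ± 0.22, edgeR adjusted p = 0.000917). In NP it had 47.5, 40.1 and 37.1 CPM in gld-2(RNAi), against 118, 117 and 107 in control RNAi (-1.51 ± 0.12, edgeR adjusted p = 0.000135), and in P 23.2, 21.1 and 17.7 CPM in gld-2(RNAi), against 85.9, 77.3 and 77.2 in control RNAi (-1.95 ± 0.13, edgeR adjusted p = 0.000541). No gld-2(RNAi) library reached the lowest control RNAi library of its fraction for either gene. In gld-4(RNAi), pie-1 had 102, 155 and 199 CPM in input, 103, 141 and 120.0 in NP and 57.5, 53.1 and 64.3 in P; the ranges overlapped with control RNAi in input and NP, and in P all 3 values lay below it. The gld-4(RNAi) levels of pos-1 were 1352, 1735 and 1990.1 CPM in input, 1415, 1847 and 1745 in NP and 365, 475 and 482 in P, overlapping with control RNAi in each fraction.

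MEX-1 is needed for P granules and PIE-1 to reach the germline blastomeres. Its mRNA had 202, 269 and 346 CPM in gld-2(RNAi) input and 493, 682 and 790.1 in gld-4(RNAi) input, against 408, 502 and 543 in control RNAi input. The gld-2(RNAi) values were below and apart from control RNAi, at 1.81-fold, while the gld-4(RNAi) values overlapped with control RNAi. In NP, mex-1 had 259.5, 211 and 213 CPM in gld-2(RNAi), against 409.8, 428 and 412 in control RNAi (-0.92 ± 0.11, edgeR adjusted p = 0.000607), again short of 2-fold. With scaling to library size alone mex-1 passed 2-fold, at -1.04 in input and -1.09 in NP. It also did so in input without gld-2(RNAi) replicate 3 (-1.07), and in NP without gld-2(RNAi) replicate 1 (-1.03), without replicate 1 of both groups (-1.06) and under both lower expression filters (-1.12 and -1.15). In P, mex-1 had 169, 126 and 136 CPM in gld-2(RNAi), against 444, 386 and 415 in control RNAi (-1.53 ± 0.13, edgeR adjusted p = 0.0011), and was called. In gld-4(RNAi) the fractions held 473, 538 and 487 CPM in NP and 361, 362 and 437 CPM in P.

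The mRNA of moe-3, which codes for a CCCH protein related to OMA-1 and OMA-2, was low in every group and correlated little with the other 7. It averaged 66.6 normalized counts over the input libraries and had 5.4, 3.42 and 2.61 CPM in gld-2(RNAi) input and 5.01, 5.44 and 4.77 in gld-4(RNAi) input, against 4.01, 4.23 and 5.38 in control RNAi input. In NP it had 4.89, 8.40 and 6.52 CPM in gld-2(RNAi) and 7.82, 7.48 and 8.30 in gld-4(RNAi), against 4.20, 6.57 and 8.21 in control RNAi. In P it had 7.08, 9.55 and 6.80 CPM in gld-2(RNAi) and 9.15, 16.1 and 14 in gld-4(RNAi), against 6.25, 14.5 and 17.3 in control RNAi. All groups overlapped with control RNAi in every fraction. With a lower limit of 10 normalized counts, at which 12173 genes were tested, edgeR gave moe-3 in gld-2(RNAi) input a log2 fold change of -0.44 ± 0.36, adjusted p = 0.38, in NP -0.19 ± 0.32, adjusted p = 0.67 and in P -0.79 ± 0.40, adjusted p = 0.175. All of these were below zero, as were those of the other 7 in gld-2(RNAi). None passed, which does not show that moe-3 was unchanged. Within the 3 replicate numbers its log2 difference in gld-2(RNAi) had both signs, at 0.43, -0.31 and -1.05 in input, 0.22, 0.35 and -0.33 in NP and 0.18, -0.60 and -1.34 in P. Unlike the other 7, moe-3 lay on the polysomal side in every gradient, with a log2 P/NP of 0.53, 0.19 and 0.06 in gld-2(RNAi), 0.23, 1.1 and 0.75 in gld-4(RNAi) and 0.57, 1.1 and 1.07 in control RNAi, and its ratio in control RNAi did not pass (0.88 ± 0.41, adjusted p = 0.117 in edgeR). Over the 27 libraries its log2 level had a Pearson r of -0.25 to 0.05 with the other 7 genes, whose levels correlated with each other at 0.80 to 0.98; these values describe the libraries, which share depth and treatment, and carry no test.

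In control RNAi, 6 of the 7 tested mRNAs leaned to the non-polysomal side and mex-1 did not. The log2 P/NP of the 3 control RNAi gradients was -1.43, -2.0 and -1.71 for pos-1, -1.07, -1.46 and -1.25 for mex-6 and 0.12, -0.15 and 0.01 for mex-1. The fitted log2 ratio was -1.72 ± 0.14 for pos-1 (edgeR adjusted p = 8.33e-05) and -1.27 ± 0.11 for mex-6 (edgeR adjusted p = 0.000109), the 2 that were at least 2-fold lower in P than in NP; among all genes tested 14.5% were. Smaller ratios that passed on p were those of oma-2 (-0.78 ± 0.10), mex-5 (-0.76 ± 0.12), pie-1 (-0.52 ± 0.08) and oma-1 (-0.44 ± 0.11), with edgeR adjusted p-values of 0.000575, 0.0015, 0.00157 and 0.013; for mex-1 the value was -0.01 ± 0.09 (edgeR adjusted p = 0.897). On p alone 35.9% of all genes were lower in P. In the same fit 6 of 8 muscle markers and 7 of 7 intestine markers were at least 2-fold higher in P. In each control RNAi gradient mex-6 was more non-polysomal than mex-5, and oma-2 more so than oma-1; these differences were not tested. These ratios are relative: TMM sets the bulk of genes near zero (median 0.05), and scaling to library size alone moved the median to -0.31 and the number of these 7 at 2-fold from 2 to 4, adding oma-2 (-1.1) and mex-5 (-1.1).

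In gld-2(RNAi) the fitted P/NP of each of the 7 was lower than in control RNAi, which passed on p for 4 of them in the test of the change given below. There 5 of the 7 were at least 2-fold lower in P than in NP (all genes 13.8%), and all 7 passed on p in edgeR (all genes 29.9% lower). By gradient the log2 P/NP was -2.06, -1.95 and -1.93 for oma-2, -1.27, -1.52 and -1.63 for mex-5 and -1.61, -1.2 and -1.26 for oma-1, with fitted values of -1.97 ± 0.14, -1.46 ± 0.11 and -1.32 ± 0.16 and edgeR adjusted p-values of 0.000292, 0.000295 and 0.00108. The values of pos-1 (-1.80 ± 0.19, edgeR adjusted p = 0.000643) and mex-6 (-1.54 ± 0.10, edgeR adjusted p = 0.000267) were also past 2-fold, that of pie-1 (-0.99 ± 0.16, edgeR adjusted p = 0.00268) was just short of it, and mex-1 was at -0.65 ± 0.14 (edgeR adjusted p = 0.00931). The lowest ratio thus belonged to oma-2 in gld-2(RNAi) and to pos-1 in control RNAi and gld-4(RNAi). With library size alone the median of all genes was -0.40 in gld-2(RNAi) and 7 of 7 passed 2-fold. In gld-4(RNAi), 3 of the 7 were at least 2-fold lower in P (all genes 12.2%): pos-1 (-1.85 ± 0.19), mex-6 (-1.51 ± 0.23) and mex-5 (-1.19 ± 0.18), with edgeR adjusted p-values of 0.000781, 0.00286 and 0.00252. There pie-1 (-0.98 ± 0.13, edgeR adjusted p = 0.0016) fell just short, 5 of 7 passed on p (all genes 28.2% lower), and oma-2 had -0.95, -0.39 and -0.40 in its gradients (-0.46 ± 0.25, edgeR adjusted p = 0.156).

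**Figure D4:**
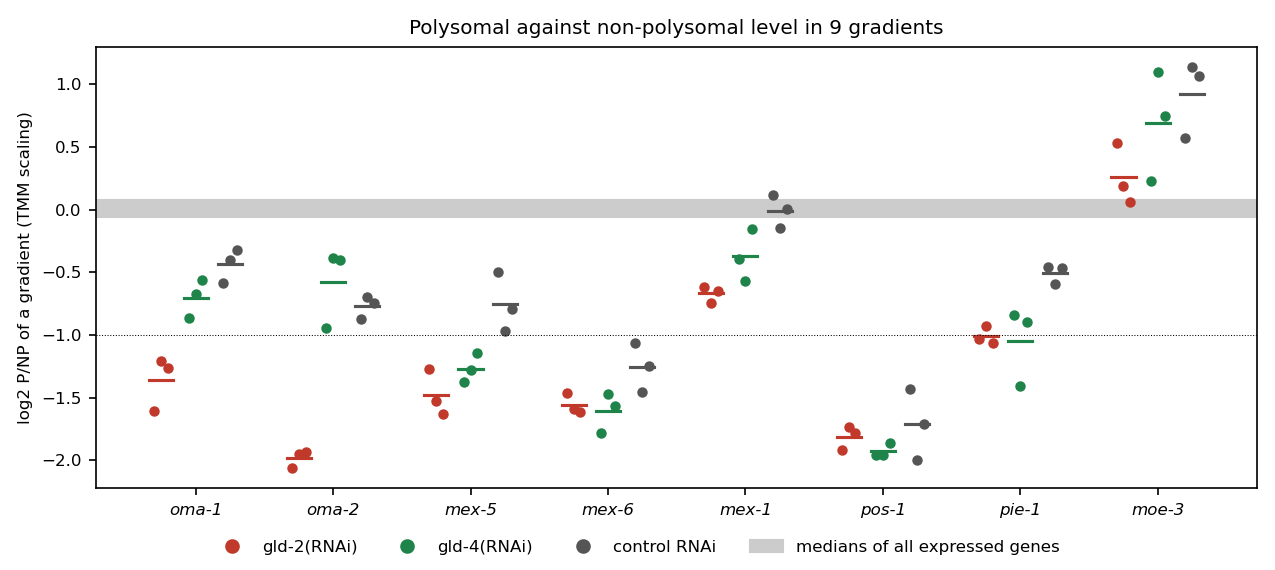
Log2 ratio of the polysomal to the non-polysomal level of each CCCH mRNA in the 3 gradients of each treatment, on TMM-scaled counts; lines are means, the grey band spans the medians of all expressed genes in the 9 gradients and the dotted line marks 2-fold. The gld-2(RNAi) gradients of oma-1, oma-2, mex-5, mex-1, pie-1 and moe-3 all lie below those of control RNAi, and so, narrowly, do those of mex-6, whereas for pos-1 the treatments overlap. How many of all genes had gradients separated like this was not counted.

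To ask whether gld-2(RNAi) changed the distribution between fractions, the interaction of treatment with fraction was fitted over 12 libraries. The P/NP of oma-2 was 2.35-fold lower in gld-2(RNAi) than in control RNAi (-1.23 ± 0.18, edgeR adjusted p = 0.00816), and oma-2 was the 1 of 7 called (all genes 0.499% lower and 0.499% higher). For oma-1 (-0.92 ± 0.20, edgeR adjusted p = 0.0255), mex-5 (-0.73 ± 0.16, edgeR adjusted p = 0.0246) and mex-1 (-0.67 ± 0.17, edgeR adjusted p = 0.0477) the reduction passed on p and was under 2-fold; 3.64% of all genes were lower on p. Over 12 alternatives in edgeR or DESeq2 these values stayed below zero, but their highest adjusted p was 0.196 for oma-1, 0.223 for mex-5 and 0.394 for mex-1. The values of pie-1 (-0.51 ± 0.17, edgeR adjusted p = 0.109), mex-6 (-0.30 ± 0.15, edgeR adjusted p = 0.267) and pos-1 (-0.12 ± 0.24, edgeR adjusted p = 0.822) did not pass. The median of the 7 was -0.67, against -0.14 over all genes tested. The call of oma-2 was lost without control RNAi replicate 2 (edgeR adjusted p = 0.0745), control RNAi replicate 3 (0.0576) or gld-2(RNAi) replicate 2 (0.0602), with log2 values of -1.2, -1.09 and -1.25. The calls over all genes then numbered 0 lower and 0 higher, 5 and 32, and 4 and 8. With the gradient as a block the call of oma-2 was kept, and 200 genes were then called lower and 52 higher, against 37 each way without the block. In the same test the 12 oocyte markers had a median of -0.56, with 1 called lower and 1 higher. In gld-4(RNAi) edgeR and DESeq2 called 0 of 7 (all genes 0.0135% lower and 0.0135% higher), with 2 at an unadjusted p under 0.05, pie-1 (-0.48 ± 0.16, edgeR adjusted p = 0.231) and mex-5 (-0.45 ± 0.19, edgeR adjusted p = 0.398).

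Set against each other in input, the treatments differed for 6 of the 7 mRNAs, with lower levels called in gld-2(RNAi) (all genes 14.7%). The log2 difference was -2.79 ± 0.21 for pos-1 (edgeR adjusted p = 0.000159), -2.39 ± 0.24 for oma-2 (edgeR adjusted p = 0.000355) and -2.06 ± 0.26 for pie-1 (edgeR adjusted p = 0.000891). The other 3 called were mex-6 (-1.54 ± 0.20), mex-5 (-1.37 ± 0.27) and mex-1 (-1.28 ± 0.24), with edgeR adjusted p-values of 0.00097, 0.00602 and 0.00491. For oma-1 the difference was -0.77 ± 0.30 (edgeR adjusted p = 0.0775), and it reached -1.08 and a call without gld-2(RNAi) replicate 3. The summed oocyte markers stood higher in gld-4(RNAi) and lower in gld-2(RNAi) than in control RNAi, although 0 of the 12 were called in gld-4(RNAi) input. Whether a difference in cell types accompanies this comparison too, and its part, was not tested.

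The partners and targets of these proteins were described by lists, which were chosen with earlier results of these data known. Of 10 maternal mRNAs with published binding or repression by CCCH proteins in C. elegans, 9 passed as reduced in input of gld-2(RNAi) (median -1.98, against 0.03 over all genes; 12.2% of all genes were reduced). Examples were mom-2, which codes for a Wnt ligand (-3.11 ± 0.17, edgeR adjusted p = 0.000191), zif-1, for the substrate adaptor that targets CCCH proteins for turnover in somatic blastomeres (-2.71 ± 0.19, edgeR adjusted p = 0.000269), and cdc-25.3, for a phosphatase (-2.59 ± 0.43, edgeR adjusted p = 0.0034). The tenth, mei-1, for the katanin subunit of the meiotic spindle, had -0.77 ± 0.17 (edgeR adjusted p = 0.0104). The same 10 were called reduced 9 times in NP and 8 times in P of gld-2(RNAi), and 8 of them were at least 2-fold lower in P than in NP in each of the 3 treatments (medians -1.74 in gld-2(RNAi), -1.50 in gld-4(RNAi) and -1.70 in control RNAi), where the shares of all genes were 13.8%, 12.2% and 14.5% in this order of treatments. Of the 20 tested of 21 partners and regulators of OMA-1, MEX-5 and PIE-1, 5 fell past the threshold in gld-2(RNAi) input and 0 rose, with a median of -0.52; among all genes tested these shares were 12.2% and 8.22%. They were zif-1, mbk-2, for the kinase that marks OMA-1 for degradation (-2.08 ± 0.19, edgeR adjusted p = 0.000478), ubc-9, for the SUMO-conjugating enzyme (-1.28 ± 0.16, edgeR adjusted p = 0.00121), hda-1, for a histone deacetylase (-1.25 ± 0.22, edgeR adjusted p = 0.00399), and cit-1.1, for a cyclin T (-1.06 ± 0.14, edgeR adjusted p = 0.00148). Outside the rule for named genes, and chosen after their values were seen, stand cit-1.1 and mei-1 above and taf-4, for the transcription factor subunit that OMA-1 holds in the cytoplasm, which had 0.53 ± 0.13 (edgeR adjusted p = 0.0152).

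Of 19 other RNA-binding regulators of oocytes and embryos, 12 fell past the threshold in gld-2(RNAi) input and 0 rose (median -1.60, all genes 12.2% and 8.22%). The largest reductions were those of cpb-3, for a cytoplasmic polyadenylation element binding protein (-2.31 ± 0.13, edgeR adjusted p = 0.000191), nos-2, for a Nanos protein (-2.23 ± 0.20, edgeR adjusted p = 0.0005), gld-1, for a STAR-domain repressor (-2.10 ± 0.12, edgeR adjusted p = 0.000191), and puf-7, for a Pumilio family protein (-2.07 ± 0.17, edgeR adjusted p = 0.000355). The 7 tested CCCH genes had a median of -1.04 there, between those of the partners and of the RNA-binding regulators. The median of the 12 oocyte markers lay close to that of the CCCH genes, slightly lower, and this difference was not tested. Of 10 other CCCH genes 4 were expressed enough to be tested and 1 was called reduced, gla-3, which acts in germ cell survival and meiotic progression (-1.79 ± 0.10, edgeR adjusted p = 0.000191). In gld-4(RNAi) input, 8 RNA-binding regulators and 1 maternal target were higher, and 1 RNA-binding regulator and 1 partner lower on p in edgeR (all genes 7.08% higher and 7.54% lower), each by less than 2-fold. The lists overlap: zif-1, nos-2 and spn-4 stand in 2 of them, and puf-5, lin-41, gld-1 and glp-1 are also among the oocyte or germ line markers.

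The genes whose levels ran most like each member over the 27 libraries were taken as the 3 with the highest Pearson r of log2 CPM among expressed genes. For pos-1 these were trcs-1 (0.995), F14B4.2 (0.994) and mom-2 (0.992), and for oma-2 F18A1.7 (0.986), cpg-1 (0.983), for an eggshell chondroitin proteoglycan, and F32D1.7 (0.983). For mex-1 they were cpg-1 (0.977), egg-6 (0.972) and gyg-2 (0.970), and for pie-1 C01G8.1 (0.982), Y110A2AR.1 (0.976) and dro-1 (0.976). For mex-6 they were F59E12.1 (0.988), C05C10.5 (0.987) and fzy-1 (0.987), and for mex-5 F35C11.5 (0.981), pup-2 (0.980) and its paralog mex-6 (0.976). For oma-1 they were air-1 (0.970), for the Aurora A kinase, T24F1.2 (0.969) and spr-2 (0.967), while oma-2 came at rank 368 among its neighbours with an r of 0.83. The neighbours of moe-3 were hum-4 (0.957), dgk-2 (0.944) and eps-8 (0.934), none of them shared with another member. Of the paralog pairs, mex-5 and mex-6 were thus close neighbours and oma-1 and oma-2 were not; the libraries share treatment and depth, and these correlations are a description only.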

How the data were processed

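Poly(A)-selected RNA of 27 libraries was sequenced. Per the labels and the study's methods the authors aligned reads to the WS220 worm genome with TopHat2, kept unique alignments, and counted exonic reads per gene with featureCounts (Subread 1.4.0). The deposited table holds raw counts, with no normalization. Deposited comparison tables hold the authors' DESeq fold changes and p-values and 72 per-library columns; only their gene names were used. No luciferase spike-in feature stands in the count table (0 found), so TMM sets the zero of every ratio. With unique alignments, reads shared by paralogs are lost and their share was not measured; the sources name both stranded and unstranded libraries, so overlapping genes on opposite strands cannot be separated. Counts reflect mRNA level together with recovery on oligo dT; poly(A) tail length was not measured here.

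Counts of the 7418 genes that averaged 100 or more TMM-normalized counts in input were tested with edgeR 4.0.16 (robust quasi-likelihood, R 4.3.3) on the 6 libraries of a comparison or the 12 of an interaction, with Benjamini-Hochberg adjustment over all 7418. Called means adjusted p of at most 0.05 and 2-fold; P against NP was counted at 2-fold whatever the p, and without the spike-in correction that the study applied to NP and P. Values are given as CPM with TMM over 27 libraries and, between genes, per kilobase of exon (WBcel235 annotation). Paralog ratios used a pseudocount of 0.5 and exact permutation tests. Alternatives were DESeq2 1.42.0, library size alone, lower filters (10 counts, or 1), a replicate block, and leaving out libraries; tables and plots were made in Python 3.11.15 (matplotlib 3.10.9). The fits were tested on simulated data. Depth was 12160686 to 18132556 counts; replicates differed beyond counting noise (chi-square per degree of freedom 9.70 to 215). Same-numbered libraries deviated together in every pair (r = 0.500 to 0.905), and the numbers were taken to pair the libraries. Differently numbered libraries gave r = -0.884 to 0.870, the positive values lying between replicates 2 and 3. The correlations thus set replicate 1 apart and do not establish a pairing of 2 and 3. The main tests used no block. Nothing in the labels says that replicates were separate cultures, so p-values measure the spread between these libraries. Members and lists were chosen with earlier results of these data known. Named genes were the 8 members, the RNAi targets, the 3 genes most like each member, and up to 4 per list with the largest change among those called.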

Additional observations from a re-analysis of the deposited data

Results flagged for a closer look

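In 4 of the 7 tested CCCH mRNAs the log2 change after gld-2(RNAi) differed between P and NP, by the interaction test in edgeR (all genes 3.64% lower on p, median -0.14): P minus NP was -1.23 for oma-2, -0.92 for oma-1, -0.73 for mex-5 and -0.67 for mex-1. Only oma-2 reached 2-fold, and its call was lost without control RNAi replicate 2, control RNAi replicate 3 or gld-2(RNAi) replicate 2. The changes of oma-1, mex-5 and mex-1 did not pass on p under every alternative. For pie-1 in gld-4(RNAi) the change in P lay -0.62 from that in input, and this difference was not tested. Within every replicate number pie-1 was lower than control RNAi in P and higher in input, in number 1 of input by only 0.0041. The fitted input change was 0.13 ± 0.25 (edgeR adjusted p = 0.764) and turned negative without control RNAi replicate 1 or gld-4(RNAi) replicate 3. The log2 ratio of oma-2 to oma-1 in gld-4(RNAi) was above control RNAi in P and below it in NP and input in every replicate number, which makes the change in P 0.46 higher than that in NP and 0.58 higher than that in input; neither difference was tested.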

How the results depend on the processing

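Of 924 alternative values of single genes, 874 kept their direction and their side of the thresholds, 17 newly passed, 10 no longer passed and 23 changed sign. With an adjusted p of at most 0.05 whatever the fold, the number of the 7 mRNAs called became 5 in gld-2(RNAi) input and 7 in its NP (all genes 24.7% and 30.2% lower). In gld-4(RNAi) it became 2 in input and 2 in NP (all genes 7.08% and 9.68% higher). For P against NP it became 6 in control RNAi, 7 in gld-2(RNAi) and 5 in gld-4(RNAi) (all genes 35.9%, 29.9% and 28.2% lower). For the P/NP change in gld-2(RNAi) it became 4 (all genes 3.64% lower). With library size alone, 4 were 2-fold lower in P in control RNAi, and the all-gene split of lower and higher calls became 1231 and 432 in gld-2(RNAi) input (904 and 610 with TMM), 1105 and 496 in NP (840 and 659), 848 and 294 in P (644 and 402), and 1936 and 826 for P against NP in control RNAi (1078 and 1564). All-gene medians moved to -0.16 in input and in P and -0.11 in NP of gld-2(RNAi). The signs that changed were of values near zero: pie-1 in gld-4(RNAi) NP (-0.064 and -0.087 under the lower filters), mex-5 in gld-4(RNAi) P (-0.015 and -0.025 under them), mex-6 there (0.011 with library size alone), mex-1 for P against NP in control RNAi (0.00056 in DESeq2) and pos-1 for the P/NP change in gld-2(RNAi) (0.079 with the filter at 10). Leaving out libraries gave 0 to 1 called mRNAs for the P/NP change in gld-2(RNAi), and ranges across zero for oma-1 in gld-2(RNAi) input (-0.46 to 0.12), pie-1 in gld-4(RNAi) input (-0.10 to 0.33) and NP (-0.059 to 0.15), pos-1 in gld-4(RNAi) NP (-0.12 to 0.024), mex-6 in gld-4(RNAi) P (-0.18 to 0.10), mex-1 for P against NP in control RNAi (-0.11 to 0.036), and pos-1 for the P/NP change in gld-2(RNAi) (-0.27 to 0.23) and gld-4(RNAi) (-0.28 to 0.046). The cause was not tested. The replicate block changed no count of called CCCH mRNAs (4, 5 and 7 in input, NP and P of gld-2(RNAi)); over all genes it gave 96 lower and 82 higher in gld-4(RNAi) input (73 and 29 without it), 43 and 166 in NP (42 and 65), 27 and 93 in P (18 and 25), and 200 and 52 for the P/NP change in gld-2(RNAi) (37 and 37). Among the 8 genes only moe-3 stood below the expression filter.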
